A study of Mus musculus with 12 samples.

Results

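The G2 and mitosis genes described here are 54 genes, listed by symbol, that cells transcribe most as they pass from G2 into division. They were taken from a table of 23472 genes, all 54 were present, and all 54 were among the 13184 genes that passed the filter on low counts. The smallest total of any of them over the 12 libraries was 4531 reads. The list was not chosen by a threshold on these data, although earlier results of the same data were known when it was drawn up.

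The cells were LT-HSCs, the long-term repopulating haematopoietic stem cells, of C57BL/6 bone marrow, the rare cells from which all blood lineages are renewed. The 6 wt libraries were labelled cre neg and the 6 libraries labelled Jak1 KO were labelled cre pos. Both groups had received poly(I:C), a synthetic RNA duplex that triggers an interferon response, in 4 doses between 4 and 6 weeks before the marrow was taken, the treatment used to induce the deletion. Each genotype held 3 libraries whose names carried VD (replicates 1 to 3) and 3 whose names carried ZL (replicates 4 to 6), called name sets below. The ages of the mice, the promoter driving cre and the exons deleted were not given in the sources used here. Cre was present in 1 genotype only, so an effect of cre and an effect of losing Jak1 cannot be told apart. Nothing said that the libraries came from separate animals, and the p-values therefore measure the spread between these samples, part of which may be technical.

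Entry into mitosis is driven by the kinase Cdk1 bound to A-type and B-type cyclins, and exit by the anaphase-promoting complex (APC/C), a ubiquitin ligase that destroys those cyclins. In between, kinetochores attach chromosomes to a spindle of microtubules, the spindle checkpoint holds the APC/C back until all are attached, and condensin and topoisomerase II compact the chromosomes. Most of these genes are silent in resting cells and switched on together late in the cycle by the MuvB complex with B-MYB and FOXM1, which reads a short promoter element named CHR, often beside CCAAT boxes bound by NF-Y. LT-HSCs are known as mostly quiescent, so in bulk RNA the level of these transcripts depends in part on how many cells are cycling. Fewer cycling cells and less of the RNA in each cycling cell cannot be told apart in these libraries.

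Promoter sequence was available for 46 of the 54 genes, as 50 windows of 300 bases from RefSeq (GRCm38.p6), each running from 250 bases before a transcript's start to 50 after it. The CHR letters TTTGAA, searched on both strands, occurred in 35 of the 50 windows (70.0%), against 17.9% of all 32851 windows of the same length. The variant TTTAAA, which reads the same on both strands, occurred in 28.0% of them, against 13.2% of all windows. CCAAT, also on both strands, occurred in 78.0%, against 37.4%. Both TTTGAA and CCAAT were present in 58.0% of the members' windows and in 6.95% of all windows. A match describes letters in a window and nothing more. The 5 stretches that follow are the 250 bases upstream of the start of Ckap2l, Plk1, Cenpe and Bub1, the genes with the smallest genotype p among those with a single window whose start lay within 30 bases of the gene's 5′ end in both the RefSeq and the GENCODE annotation, and of Cdk1, the central kinase. They are shown so that the elements each gene carries or lacks can be seen beside its expression. The stretches run 5′ to 3′ on the gene's strand, with CHR letters and CCAAT boxes (TTCAAA and ATTGG on the other strand) in capitals.
Ckap2l promoter, chr2:129297213-129297462, minus strand: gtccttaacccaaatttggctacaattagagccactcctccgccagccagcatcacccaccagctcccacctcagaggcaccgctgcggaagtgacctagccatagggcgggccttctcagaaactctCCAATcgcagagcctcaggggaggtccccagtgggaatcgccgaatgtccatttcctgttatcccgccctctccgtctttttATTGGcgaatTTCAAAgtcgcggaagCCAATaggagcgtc
Plk1 promoter, chr7:122159185-122159434, plus strand: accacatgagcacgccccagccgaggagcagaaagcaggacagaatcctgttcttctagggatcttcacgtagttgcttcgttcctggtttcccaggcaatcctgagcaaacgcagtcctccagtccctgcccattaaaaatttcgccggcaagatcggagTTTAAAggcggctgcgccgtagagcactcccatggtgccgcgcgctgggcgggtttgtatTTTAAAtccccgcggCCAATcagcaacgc
Cenpe promoter, chr3:135212313-135212562, plus strand: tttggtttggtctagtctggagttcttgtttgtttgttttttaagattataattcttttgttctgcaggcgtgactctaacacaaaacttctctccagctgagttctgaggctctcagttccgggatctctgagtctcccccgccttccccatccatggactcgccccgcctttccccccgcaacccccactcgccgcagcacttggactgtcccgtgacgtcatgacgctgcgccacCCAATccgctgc
Bub1 promoter, chr2:127831860-127832109, minus strand: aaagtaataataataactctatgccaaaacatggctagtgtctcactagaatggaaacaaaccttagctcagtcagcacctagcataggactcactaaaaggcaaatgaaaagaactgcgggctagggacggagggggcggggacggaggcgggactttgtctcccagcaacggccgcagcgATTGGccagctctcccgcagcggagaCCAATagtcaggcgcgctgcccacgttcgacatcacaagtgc
Cdk1 promoter, chr10:69352913-69353162, minus strand: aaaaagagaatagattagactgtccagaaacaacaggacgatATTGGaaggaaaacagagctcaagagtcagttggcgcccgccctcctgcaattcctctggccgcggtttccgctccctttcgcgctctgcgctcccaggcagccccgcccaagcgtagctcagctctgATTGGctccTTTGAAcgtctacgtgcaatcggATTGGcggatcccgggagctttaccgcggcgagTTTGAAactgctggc
Ckap2l and Cdk1 carried CHR letters and 3 CCAAT boxes each within these stretches. Plk1 carried the TTTAAA form at 2 places with 1 CCAAT box, and a TTTGAA in the bases after its start that are not shown. Cenpe and Bub1 had CCAAT boxes but no CHR letters in the bases shown. After the start, in bases not shown, Cenpe carried a TTTAAA and Ckap2l a further TTTGAA. Bub1 had no CHR letters anywhere in its window.

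Total counts ranged from 8989965 to 28701855 reads per library, and no library repeated another of its genotype and name set to within counting noise (lowest chi-square per degree of freedom 14.1). Levels are normalised CPM, each gene's count scaled to a common library total. Jak1, the tyrosine kinase named in the labels, was counted at 374 ± 45.4 CPM in wt and 422 ± 161 CPM in the libraries labelled Jak1 KO (SD, n = 6 each), a log2 fold change of 0.18 (SE 0.20, edgeR's adjusted p = 0.945). A whole-gene count keeps the reads of exons outside a deletion, so it is no check on the genotype, and the group is called by its label. All 12 LT-HSC markers on the list were detected, with a summed level of 2510 to 5264 CPM over the 12 libraries. Some libraries stood apart. Reads of the ribosomal RNA precursor gene Rn45s were 14.8% to 22.6% of VD reads and 0.511% to 0.950% of ZL reads, and neutrophil markers summed to 490 to 1334 CPM in VD and 6.21 to 12.7 CPM in ZL. In ZL, the libraries wt 6, Jak1 KO 4 and Jak1 KO 6 departed most from their set in a way that followed transcript length, given with the members' values further on. The library wt 5 followed, with Spearman's correlation of exon length and level at -0.27 over all genes and -0.43 across the members.

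The comparison between genotypes over all 12 libraries asked whether transcripts of the G2 and mitosis programme differ with the labelled genotype. Most of the 54 genes had slightly lower values in the libraries labelled Jak1 KO, and none of the differences passed the test. The log2 fold changes (Jak1 KO over wt) ran from -0.61 for Ckap2l to 0.30 for Cks2 with a median of -0.18, and 44 of 54 lay below 0 (81.5%). Over all 13184 genes the median was -0.01, and 51% lay below 0. With edgeR's quasi-likelihood test and Benjamini-Hochberg adjustment over all genes, 0 of 54 members passed an adjusted p of 0.05, where 0.432% of all genes passed as lower and 0.00758% as higher. The DESeq2 Wald test called 1 member, Ckap2l, and 0.956% of all genes in either direction.

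At an unadjusted p under 0.05, 7 members were lower and 0 higher, against 2.66% and 2.4% of all genes. These were Ckap2l, Kif2c, Plk1, Rangap1, Dlgap5, Tpx2 and Ccnb1, of which Ckap2l, Kif2c, Tpx2 and Dlgap5 act on the spindle. The number was 4 without wt 1 (4.12% of all genes in either direction), 3 without wt 6 (4.95%), 2 without Jak1 KO 3 (4.3%) and 17 without Jak1 KO 6 (8.08%), against 5.06% of all genes with every library kept. In every one of the 12 fits that left out 1 library the median of the members stayed below 0, between -0.13 and -0.22.

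**Figure D1:**
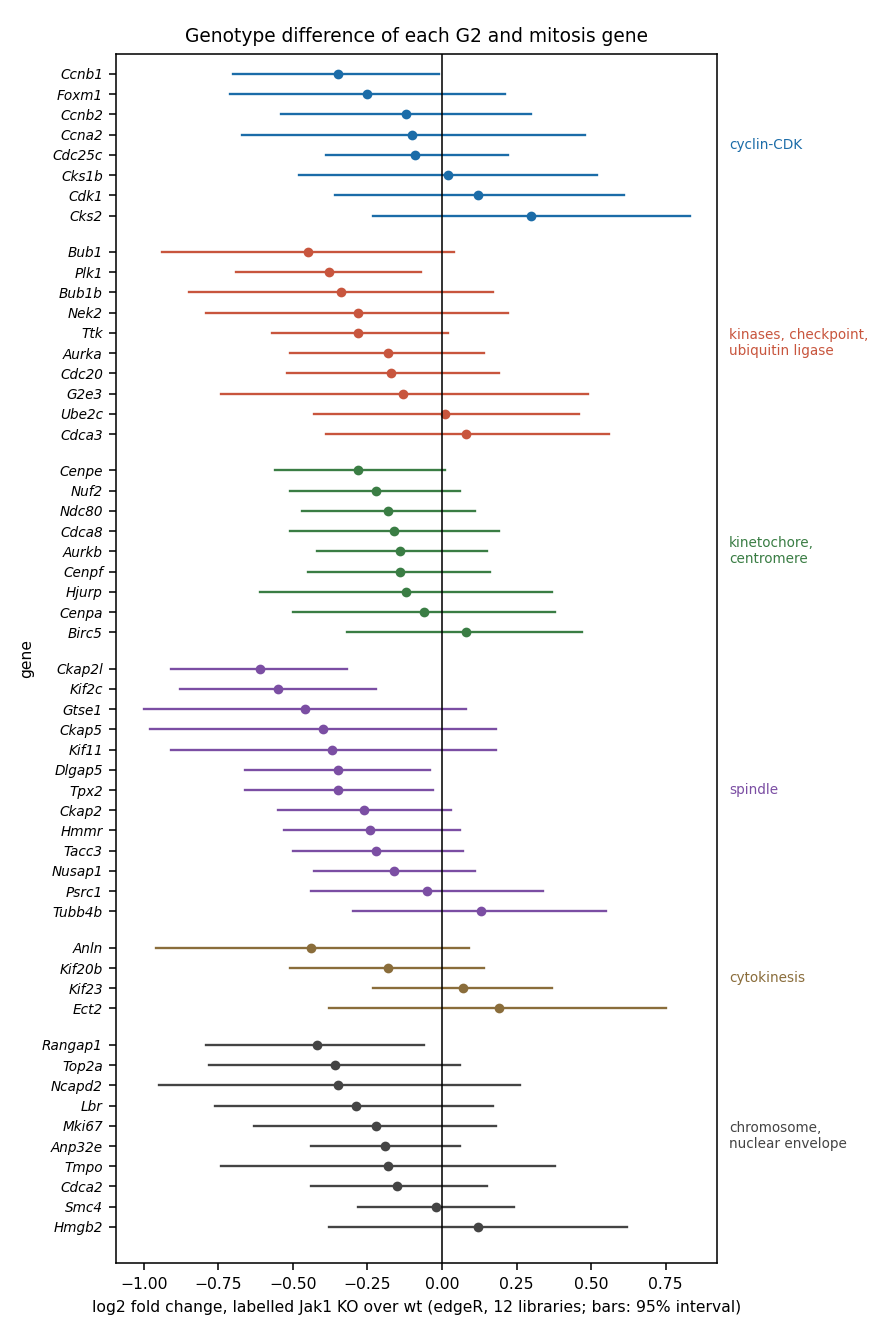
Log2 fold change of each of the 54 G2 and mitosis genes (libraries labelled Jak1 KO over wt, 12 libraries, edgeR), grouped by role, with bars for the 95% interval. The points run from -0.61 (Ckap2l) to 0.30 (Cks2), 44 lie left of 0, and the spindle group reaches farthest left.

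Other lists had fold changes in both directions. S-phase genes, a list of 43, lay at a median of -0.21 with 35 below 0. Of these, 5 were lower at an unadjusted p under 0.05, against 2.66% of all genes. In VD 16 of the S-phase genes were lower at that p, against 7.15% of all genes, and in ZL 0, against 1.05%. Erythroid markers had fold changes below 0 in 7 of the 8 that were tested, with a median of -0.53. At an unadjusted p under 0.05, 2 of the 8 were lower, against the same 2.66% of all genes. In VD 4 were lower at that p, against 7.15% of all genes, and 1 passed as lower with edgeR, against 0.76%. In ZL 2 were lower at that p, against 1.05%. The summed level of the erythroid markers was 190 to 478 CPM in VD wt against 128 to 201 CPM in VD Jak1 KO, and 227 to 284 CPM against 156 to 213 CPM in ZL. Gata1, Epor and Hemgn made up much of that sum in most libraries, and Alas2 stood at 255 CPM in wt 2, while Slc4a1 was at 0 in 6 libraries. LT-HSC markers had a median of 0.06 over both sets, 0.20 in VD and -0.12 in ZL. In VD 5 of the 12 were higher and 1 lower at an unadjusted p under 0.05, against 6.46% and 7.15% of all genes. With edgeR 1 of the 12 passed as higher in VD, against 0.395% of all genes. The 6 multipotent and myeloid progenitor markers that were tested had a median of 0.19 in VD and 0.10 in ZL. In VD 1 lay below 0, and 2 were higher at an unadjusted p under 0.05, against 6.46% of all genes. The part of these lists in the members' values was not tested.

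The cyclin and Cdk1 group had 8 members, whose median log2 fold change was -0.09. Of these, 5 lay below 0, 1 (Ccnb1) had an unadjusted p under 0.05 and 0 passed. The small Cdk-binding subunits Cks1b and Cks2 and Cdk1 itself had fold changes above 0, and for Cdk1 and Cks1b the sign turned without Jak1 KO 4. Cdk1 (chr10:69335146-69352938), the kinase that starts mitosis, was counted at 94.3, 96.7 and 105 CPM in wt 1 to 3, 84.3, 93.7 and 80.1 in Jak1 KO 1 to 3, 111, 158 and 125 in wt 4 to 6 and 287, 144 and 103 in Jak1 KO 4 to 6. In VD each Jak1 KO value was below each wt value by a narrow margin, and in ZL Jak1 KO 4 stood far above all other libraries. Its log2 fold change was 0.12 (SE 0.23, edgeR's adjusted p = 0.951), and -0.11 without Jak1 KO 4.

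Ccnb1 (chr13:100778650-100786570), cyclin B1, the main partner of Cdk1 at mitotic entry, was at 34.0, 45.4 and 28.5 CPM in wt 1 to 3 and 26.8, 30.9 and 19.96 in Jak1 KO 1 to 3. In ZL it was at 73.7, 87.9 and 82.9 in wt 4 to 6 and 61.6, 75.4 and 70.6 in Jak1 KO 4 to 6. The genotypes overlapped in both sets, through Jak1 KO 2 in VD and Jak1 KO 5 in ZL. Over all libraries the log2 fold change was -0.35 (SE 0.16, unadjusted p = 0.0467, edgeR's adjusted p = 0.945). Ccnb2 (chr9:70407692-70421547), the other B-type cyclin of the list, stood at 77.6, 95.01 and 84.2 CPM in the VD wt libraries and 67.1, 62.6 and 57.9 in the VD Jak1 KO libraries, without overlap. In ZL the values were 144, 194 and 141 in wt and 266, 153 and 133 in Jak1 KO, where Jak1 KO 4 was the highest of the 6. The log2 fold change was -0.41 in VD (SE 0.12), 0.20 in ZL (SE 0.33) and -0.12 over both.

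Cks1b (chr3:89415472-89418383), a small subunit that helps Cdk1 dock on its substrates, was at 68.0, 61.2 and 53.7 CPM in wt 1 to 3, 47.9, 54.5 and 40.5 in Jak1 KO 1 to 3, 122, 156 and 117 in wt 4 to 6 and 271, 149 and 98.1 in Jak1 KO 4 to 6. Only Jak1 KO 2 overlapped the wt range in VD, and Jak1 KO 4 was the highest library of all 12. Its log2 fold change of 0.02 (SE 0.23) became -0.20 without Jak1 KO 4, -0.05 without wt 4 and -0.06 without wt 6. Cks2 (chr13:51645232-51650660), its paralog, had low levels of 14.2, 16.04 and 16.8 CPM in wt 1 to 3, 15.5, 20.2 and 13.8 in Jak1 KO 1 to 3, 17.2, 26.5 and 16.6 in wt 4 to 6 and 45.2, 25.4 and 15.6 in Jak1 KO 4 to 6. The groups overlapped in both sets, and the log2 fold change was 0.30 (SE 0.25, edgeR's adjusted p = 0.945). Foxm1 (chr6:128362967-128376146), the transcription factor that helps switch on this programme, was at 75.2, 83.5 and 69.8 CPM in wt 1 to 3, 62.2, 68.3 and 63.5 in Jak1 KO 1 to 3, 32.4, 19.1 and 25.8 in wt 4 to 6 and 11.8, 19.7 and 32.7 in Jak1 KO 4 to 6. All 3 VD Jak1 KO libraries lay below the VD wt libraries, the ZL genotypes overlapped fully, and the log2 fold change was -0.25 (SE 0.21, edgeR's adjusted p = 0.945). Cyclin A2 (Ccna2) and the phosphatase Cdc25c, which removes the inhibitory phosphates of Cdk1, had log2 fold changes of -0.10 and -0.09.

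**Figure D2:**
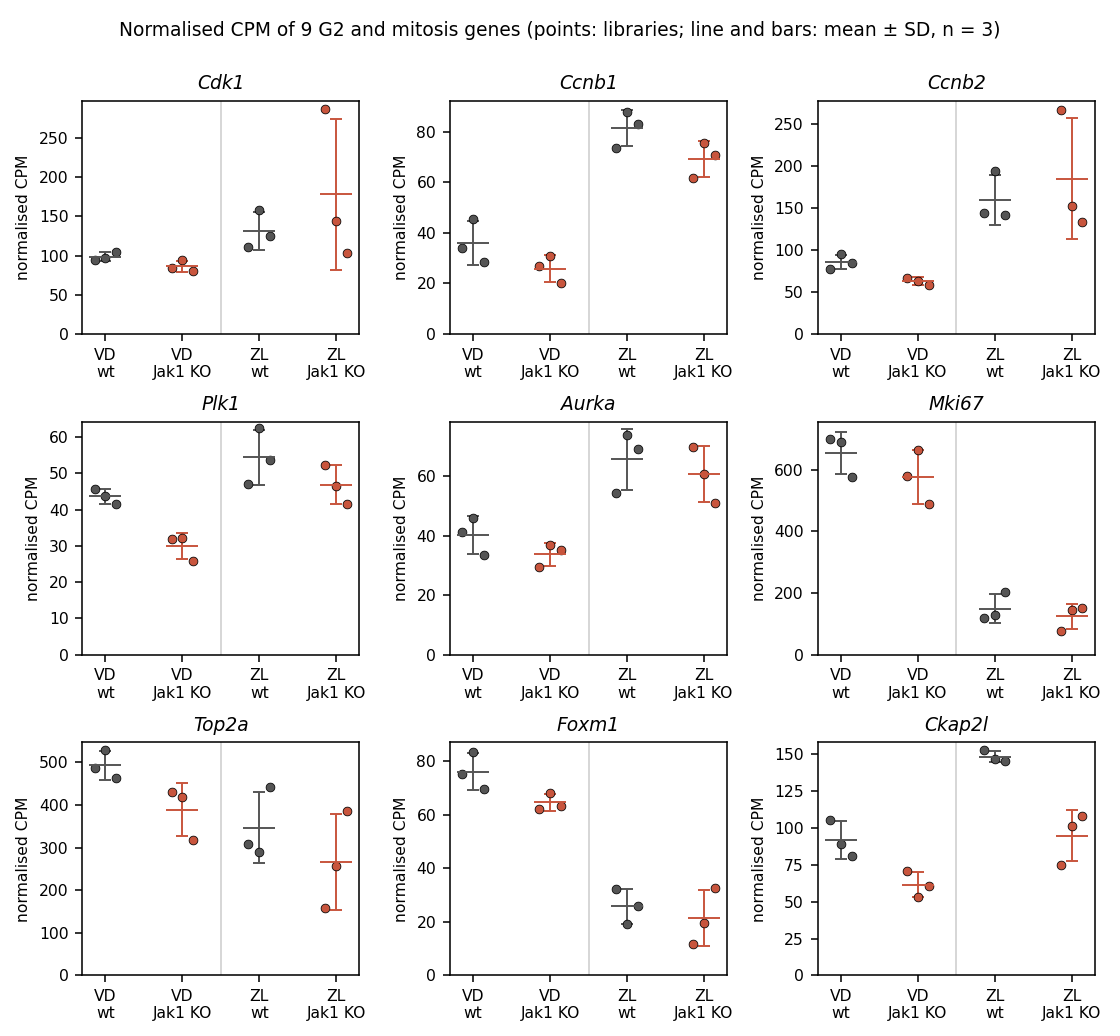
Normalised CPM of 9 members in each library, by name set and genotype (points are libraries, with mean and SD, n = 3). Ckap2l is the 1 gene of the 9 whose genotypes are apart in both sets, at 80.8 to 106 against 53.4 to 70.9 CPM in VD and 146 to 153 against 75.2 to 108 CPM in ZL.

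Among the 10 mitotic kinases, checkpoint proteins and ubiquitin ligase components the median log2 fold change was -0.23. Of these, 8 lay below 0, 1 (Plk1) had an unadjusted p under 0.05 and 0 passed. Plk1 (chr7:122159439-122169873), the polo-like kinase that matures centrosomes and stabilises kinetochore attachment, was at 45.7, 43.8 and 41.5 CPM in wt 1 to 3 and 32.0, 32.2 and 25.8 in Jak1 KO 1 to 3. In ZL it was at 47.2, 62.4 and 53.6 in wt 4 to 6 and 52.3, 46.6 and 41.6 in Jak1 KO 4 to 6. The VD genotypes were clearly apart and the ZL genotypes overlapped. Its log2 fold change came to -0.38 (SE 0.14, unadjusted p = 0.0195, edgeR's adjusted p = 0.818). Aurka (chr2:172356190-172370535), the aurora kinase of centrosomes and spindle poles, was at 41.3, 46.1 and 33.4 CPM in wt 1 to 3, 29.5, 36.9 and 35.1 in Jak1 KO 1 to 3, 54.3, 74.0 and 69.2 in wt 4 to 6 and 70.0, 60.8 and 51.2 in Jak1 KO 4 to 6. The genotypes overlapped in both sets, with a log2 fold change of -0.18 (SE 0.15).

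Ttk (chr9:83834689-83872389), the kinase at the top of the spindle checkpoint, also known as Mps1, was at 34.9, 35.2 and 41.0 CPM in wt 1 to 3, 25.5, 30.1 and 28.9 in Jak1 KO 1 to 3, 40.8, 39.0 and 42.2 in wt 4 to 6 and 30.3, 37.5 and 41.2 in Jak1 KO 4 to 6. The VD genotypes did not overlap, Jak1 KO 6 overlapped the ZL wt range, and the log2 fold change was -0.28 (SE 0.14, edgeR's adjusted p = 0.945). The checkpoint kinase Bub1 and its relative Bub1b (BubR1) were apart in VD as well, with log2 fold changes over all libraries of -0.45 (SE 0.23) and -0.34 (SE 0.24). Cdc20 (chr4:118432901-118437352), the activator of the APC/C that the checkpoint restrains, was at 78.6, 87.2 and 76.6 CPM in wt 1 to 3, 70.7, 61.1 and 54.2 in Jak1 KO 1 to 3, 111, 143 and 102 in wt 4 to 6 and 161, 99.3 and 106 in Jak1 KO 4 to 6. Its VD genotypes were apart and in ZL Jak1 KO 4 was the highest library, with a log2 fold change of -0.17 (SE 0.17). Of the rest, the centrosome kinase Nek2 had -0.28, the APC/C-specific ubiquitin-conjugating enzyme Ube2c 0.01, Cdca3 0.08 and the ubiquitin ligase G2e3 -0.13.

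Among the 9 kinetochore and centromere genes the median log2 fold change was -0.14. Of these, 8 lay below 0 and 0 had an unadjusted p under 0.05. Cenpe (chr3:135212537-135273611), a kinesin motor that carries chromosomes to the spindle equator, had the smallest p of the group (unadjusted p = 0.056, edgeR's adjusted p = 0.945) and a log2 fold change of -0.28 (SE 0.13). It was counted at 90.8, 86.7 and 73.3 CPM in wt 1 to 3, 69.2, 69.3 and 73.1 in Jak1 KO 1 to 3, 68.4, 83.2 and 94.3 in wt 4 to 6 and 68.1, 56.6 and 74.0 in Jak1 KO 4 to 6. In VD the genotypes only just did not overlap, since wt 3 and Jak1 KO 3 were nearly equal. Nuf2 (chr1:169497934-169531464), a subunit of the Ndc80 complex that grips microtubules, was at 54.5, 52.6 and 45.4 CPM in wt 1 to 3, 39.2, 47.6 and 36.4 in Jak1 KO 1 to 3, 79.8, 76.3 and 71.2 in wt 4 to 6 and 72.2, 73.2 and 61.3 in Jak1 KO 4 to 6. Its genotypes overlapped in both sets, with a log2 fold change of -0.22 (SE 0.13), close to the -0.18 of its partner Ndc80.

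The chromosomal passenger complex, which corrects wrong attachments, had 3 members in the list. Aurkb (chr11:69045647-69051664), its kinase, was at 75.1, 73.1 and 73.1 CPM in wt 1 to 3, 59.1, 79.4 and 53.9 in Jak1 KO 1 to 3, 100.5, 119 and 113 in wt 4 to 6 and 116, 105 and 96.9 in Jak1 KO 4 to 6. The genotypes overlapped in both sets and the log2 fold change was -0.14 (SE 0.13). Its partners Cdca8 (borealin) and Birc5 (survivin) had -0.16 and 0.08. The centromeric histone Cenpa, its chaperone Hjurp and the kinetochore protein Cenpf had -0.06, -0.12 and -0.14.

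The spindle group held the lowest fold changes of the 54 genes. The median log2 fold change of its 13 members was -0.35, 12 lay below 0 and 4 had an unadjusted p under 0.05 (Ckap2l, Kif2c, Tpx2 and Dlgap5), though 0 passed. Ckap2l (chr2:129268210-129297212), a microtubule-associated protein of spindle poles and the midbody, was at 106, 89.3 and 80.8 CPM in wt 1 to 3 and 70.9, 53.4 and 60.6 in Jak1 KO 1 to 3. In ZL it was at 153, 147 and 146 CPM in wt 4 to 6 and 75.2, 101 and 108 in Jak1 KO 4 to 6. Each Jak1 KO value was below all wt values of its set, and in ZL the 3 wt values lay close together. The log2 fold change was -0.61 (SE 0.14, 95% interval -0.91 to -0.32), which corresponds to 1.53-fold lower, with an unadjusted p of 0.00058 and an edgeR adjusted p of 0.1. It passed with the DESeq2 Wald test (adjusted p = 0.00127) and, with edgeR, without wt 6, Jak1 KO 4 and Jak1 KO 6 together (adjusted p = 0.0463). Over all settings tried its adjusted p ranged from 0.00127 to 1, and its log2 fold change from -0.67 to -0.51.

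Kif2c (chr4:117159639-117182639), the kinesin that strips tubulin from microtubule ends at centromeres, was at 37.7, 50.7 and 41.7 CPM in wt 1 to 3 and 28.9, 25.5 and 22.7 in Jak1 KO 1 to 3. In ZL it was at 41.5, 52.3 and 49.0 in wt 4 to 6 and 32.6, 37.8 and 41.6 in Jak1 KO 4 to 6. The VD genotypes were well apart, while in ZL Jak1 KO 6 was just above wt 4. This gave a log2 fold change of -0.55 (SE 0.15, unadjusted p = 0.00294, edgeR's adjusted p = 0.32). Tubb4b (chr2:25222160-25224702), a beta-tubulin isotype whose paralogs may share its reads, was at 289, 273 and 307 CPM in wt 1 to 3, 251, 271 and 216 in Jak1 KO 1 to 3, 353, 438 and 393 in wt 4 to 6 and 806, 480.1 and 374 in Jak1 KO 4 to 6. It was the 1 spindle gene above 0, at 0.13 (SE 0.20), and at -0.04 without Jak1 KO 4.

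Tpx2, which targets and activates aurora A on the spindle, was chosen for mention after its values were seen. It was counted at 124, 118 and 114 CPM in wt 1 to 3, 104, 97.2 and 88.3 in Jak1 KO 1 to 3, 123, 123 and 132 in wt 4 to 6 and 66.4, 102 and 119.9 in Jak1 KO 4 to 6. The 6 wt libraries were alike in both sets, and each Jak1 KO value was below all of them except Jak1 KO 6, which was above wt 2 and wt 3 of the other set. The log2 fold change was -0.35 (SE 0.15, unadjusted p = 0.0328, edgeR's adjusted p = 0.877). The others were Dlgap5 (HURP), a protein of kinetochore fibres, at -0.35, the bipolar spindle motor Kif11 at -0.37, the microtubule polymerase Ckap5 at -0.40, Gtse1 at -0.46, Ckap2 at -0.26, Hmmr at -0.24, Tacc3 at -0.22, Nusap1 at -0.16 and Psrc1 at -0.05 on the log2 scale.

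The 4 cytokinesis genes were split, 2 below 0 and 2 above, with a median log2 fold change of -0.05 and 0 at an unadjusted p under 0.05. Anln (chr9:22332012-22389188), anillin, the scaffold of the contractile ring, was at 64.2, 80.1 and 56.5 CPM in wt 1 to 3, 54.6, 54.3 and 46.7 in Jak1 KO 1 to 3, 42.6, 40.8 and 73.5 in wt 4 to 6 and 18.2, 34.4 and 57.7 in Jak1 KO 4 to 6. Its VD genotypes were apart by a small gap and its ZL genotypes overlapped through Jak1 KO 6, with a log2 fold change of -0.44 (SE 0.25, edgeR's adjusted p = 0.945). Kif20b (chr19:34922361-34975745), a kinesin of the midbody, was at 81.6, 84.6 and 65.1 CPM in wt 1 to 3, 68.9, 74.8 and 60.6 in Jak1 KO 1 to 3, 72.0, 96.5 and 104 in wt 4 to 6 and 62.2, 81.9 and 95.1 in Jak1 KO 4 to 6. Its groups overlapped in both sets (-0.18, SE 0.15). Ect2, which activates the GTPase RhoA at the division plane, and Kif23, the motor of centralspindlin, had 0.19 (SE 0.26) and 0.07 (SE 0.14).

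Among the 10 chromosome and nuclear envelope genes the median was -0.21 on the log2 scale. Of these, 9 lay below 0, 1 (Rangap1) had an unadjusted p under 0.05 and 0 passed. Top2a (chr11:98992943-99024189), topoisomerase II alpha, which disentangles sister DNA, was at 487, 528 and 463 CPM in wt 1 to 3, 431, 418 and 317 in Jak1 KO 1 to 3, 308, 290.5 and 441 in wt 4 to 6 and 159, 257 and 384 in Jak1 KO 4 to 6. The VD genotypes were apart, and in ZL Jak1 KO 6 lay above wt 4 and wt 5 while Jak1 KO 4 was the lowest library of all 12. The log2 fold change was -0.36 (SE 0.19, edgeR's adjusted p = 0.945). Mki67 (chr7:135689784-135716361), the Ki-67 protein that coats mitotic chromosomes and is the usual stain for cycling cells, was at 700.3, 689.8 and 576 CPM in wt 1 to 3, 579, 665 and 488 in Jak1 KO 1 to 3, 118, 128 and 203 in wt 4 to 6 and 76.8, 144 and 153 in Jak1 KO 4 to 6. The genotypes overlapped in both sets, and the sets differed far more than the genotypes did. Its log2 fold change between genotypes was -0.22 (SE 0.19, edgeR's adjusted p = 0.945).

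Rangap1 (chr15:81704248-81745530), the GTPase-activating protein of Ran that sits at nuclear pores and on kinetochores, was at 186, 181 and 164 CPM in wt 1 to 3, 132, 144 and 107 in Jak1 KO 1 to 3, 140.1, 136 and 180.0 in wt 4 to 6 and 73.5, 140.2 and 137 in Jak1 KO 4 to 6. The VD genotypes were apart, 2 of the 3 ZL Jak1 KO libraries lay within the wt range, and Jak1 KO 4 was far below. Over both sets the log2 fold change was -0.42 (SE 0.17, unadjusted p = 0.0261, edgeR's adjusted p = 0.838). Anp32e (chr3:95929246-95947390), a chaperone that removes the histone H2A.Z, was at 300.4, 296 and 278 CPM in wt 1 to 3, 234, 266 and 218 in Jak1 KO 1 to 3, 515, 503 and 558 in wt 4 to 6 and 546, 489 and 443 in Jak1 KO 4 to 6. It was apart in VD and overlapped in ZL (-0.19, SE 0.12). The condensin subunits Smc4 and Ncapd2 had -0.02 and -0.35, the DNA-bending protein Hmgb2 0.12, the phosphatase anchor Cdca2 -0.15, and the inner nuclear membrane proteins Tmpo and Lbr -0.18 and -0.29.

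Of 111 further genes of the same machinery, arranged in 6 lists, 80 had a log2 fold change below 0 (72.1%) with a median of -0.13. None passed the test over the 12 libraries with edgeR. At an unadjusted p under 0.05, 6 were lower and 0 higher, against 2.66% and 2.4% of all genes. The other spindle and cytokinesis genes again had the lowest median, -0.25 with 23 of 25 below 0, and the condensin and cohesin genes followed with -0.20 and 13 of 16. The 10 regulators of entry had -0.12 and 9 below 0, and the 10 MuvB and B-MYB genes -0.15 and 7 below 0. The 30 other kinetochore subunits had -0.08 and 16 below 0, and the 20 checkpoint and APC/C genes -0.04 and 12 below 0.

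By the smallest p of each list, Incenp, the scaffold of the chromosomal passenger complex, had a log2 fold change of -0.45 (unadjusted p = 0.0145) and the kinetochore subunit Nsl1 -0.49 (0.0243). Incenp was counted at 153, 165 and 149.6 CPM in wt 1 to 3 and 113, 119 and 108 in Jak1 KO 1 to 3, without overlap. It was the 1 gene of the 111 that passed in VD alone with edgeR (log2 fold change -0.42, adjusted p = 0.0335). Among all genes 0.76% passed as lower in VD, so 1 of 111 is near that share. In ZL it was at 121, 111 and 143 in wt 4 to 6 and 58.0, 96.8 and 120.2 in Jak1 KO 4 to 6, where Jak1 KO 6 overlapped. The central spindle protein Prc1 had -0.36 (0.0299), the spindle motor Kif15 -0.42 (0.0315), and the condensin subunits Ncaph and Ncapg -0.35 (0.0484) and -0.27 (0.0921). The centriole kinase Plk4 and the ubiquitin ligase subunit Ccnf (cyclin F) had -0.32 and -0.34, the MuvB subunit Lin54 and its partner E2f4 -0.32 and -0.27, and the checkpoint protein Mad1l1 and the APC/C inhibitor Fbxo5 -0.25 and -0.19.

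Within the VD set alone, most members had lower values in the libraries labelled Jak1 KO. The members' median log2 fold change was -0.21, and 49 of 54 lay below 0 against 49.2% of all genes. At an unadjusted p under 0.05, 19 members were lower and 0 higher, where 7.15% of all 12903 genes tested were lower and 6.46% higher. Adjusted over all genes, 0 members passed with edgeR, against 0.76% lower and 0.395% higher among all genes. The nearest were Kif2c (-0.71, SE 0.17, edgeR's adjusted p = 0.0589), Ckap2l (-0.53, SE 0.13, 0.0648) and Rangap1 (-0.43, SE 0.11, 0.0734).

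For 29 of the 54 members all VD Jak1 KO libraries were below all VD wt libraries, an arrangement found for 13.2% of all genes. The reverse arrangement held for 0 members and for 6.61% of all genes. The 29 were 4 of the 8 cyclin and Cdk1 genes, 6 of the 10 kinases and checkpoint genes, 3 of 9 at the kinetochore, 7 of 13 on the spindle, 1 of 4 of cytokinesis and 8 of 10 of chromosomes and the nuclear envelope. With Rn45s left out of the library totals the number was 20, against 9.89% of all genes. The library Jak1 KO 3 was the lowest of the 6 VD libraries for 36 members and wt 2 the highest for 28. The count of members at an unadjusted p under 0.05 was 9 without Jak1 KO 3 (10.6% of all genes in either direction), 11 without wt 2 (10%) and 29 without Jak1 KO 2 (16.9%), against 13.6% of all genes with every library kept. Without wt 3 Ckap2l passed, as did 1.04% of all genes, and without Jak1 KO 2 Ckap5 and Rangap1 passed, as did 2.29% of all genes.

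Within the ZL set the members' values spread more. The median was -0.17 on the log2 scale, and 37 of 54 lay below 0, against 50.3% of all genes. With edgeR 0 of 54 passed, and 0 of all 13859 genes tested passed either (0%). At an unadjusted p under 0.05 there was 1 lower member, Ckap2l (-0.65, SE 0.26, unadjusted p = 0.0338, edgeR's adjusted p = 0.946), and 0 higher, against 1.05% and 0.577% of all genes. Without Jak1 KO 6 the number was 5, against 8.15% of all genes in either direction, and without any 1 of wt 4, wt 5, wt 6 or Jak1 KO 5 it was 0, against 1.25% to 1.96% of all genes. The median was -0.10 without Jak1 KO 4. For 5 members all ZL Jak1 KO libraries were below all ZL wt libraries, where 2.34% of all genes had this arrangement, and the reverse held for 0 members and 1.99% of all genes. All 5 belong to the spindle group: Tpx2, Nusap1, Ckap2, Ckap2l and Tacc3. The count was 7 without Jak1 KO 4 (4.46% of all genes), 13 without wt 4 (6.58% of all genes) and 19 without Jak1 KO 6 (16.5% of all genes).

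Both sets together had 2 members with this arrangement, Tpx2 and Ckap2l, against 0.963% of all genes, and 35 members had a fold change below 0 in each set, as did 3306 of the 13184 genes tested over 12 libraries. The difference of the genotype effect between sets, tested as an interaction with edgeR, passed for 0 members and 0 of all genes. At an unadjusted p under 0.05 it held for 0 of 54 members and 1.38% of all genes. Without Jak1 KO 6 it held for 9 members and 16.2% of all genes, so the share of members was near that of all genes.

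**Figure D3:**
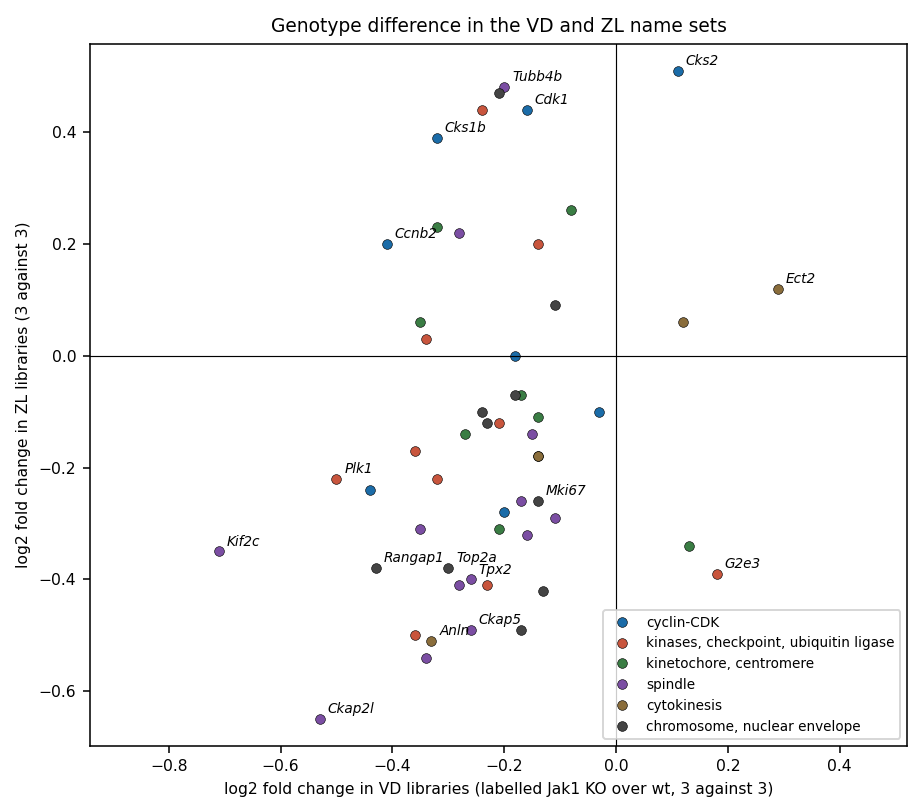
Log2 fold change of each member in the VD libraries (horizontal axis) against that in the ZL libraries (vertical axis), 3 Jak1 KO against 3 wt libraries each, coloured by role. Ckap2l lies lowest (-0.53 and -0.65), and Cdk1, Cks1b and Tubb4b lie below 0 in VD and above 0 in ZL.

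The wide spread in ZL followed transcript length in several libraries. The library Jak1 KO 4 was the highest of the 6 ZL libraries for 14 members and the lowest for 28. The 14 were shorter as a group, with a median of 2934.5 exon bases, and included Cdk1, Ccnb2, Cks1b, Cks2, Tubb4b and Hmgb2. The 28 were longer as a group, with a median of 5152.5 exon bases, and included Top2a, Kif11, Bub1b and Ncapd2. Lengths overlapped, at 692 to 5860 bases in the 14 and 2742 to 15433 in the 28. Cdk1 (4934 bases), of the 14, was longer than Bub1b (4275 bases), of the 28. Bub1b was at 112, 92.1 and 152 CPM in wt 4 to 6 and 38.3, 96.2 and 133 in Jak1 KO 4 to 6. Hmgb2 was at 152, 187 and 130.2 CPM in wt 4 to 6 and 348, 187 and 118 in Jak1 KO 4 to 6. Among all genes with an exon length the same library was the highest for 34.3% (median 2693 bases) and the lowest for 35.6% (median 5911 bases).

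Across the 54 members, Spearman's correlation of exon length with the log2 CPM relative to the name set was -0.49 in Jak1 KO 4, 0.57 in Jak1 KO 6, 0.50 in wt 6 and -0.43 in wt 5. Over all 13072 genes with a length it was -0.52, 0.45, 0.38 and -0.27 in the same libraries. These are descriptions across genes of single libraries, and genes are not independent replicates. The libraries' trends are not independent either, since each library is set against the mean of the same 6 libraries. Ccna2 and Tmpo stood outside the trend in wt 6, at 212, 219 and 55.8 CPM for Ccna2 and 552, 364 and 143 CPM for Tmpo in wt 4 to 6, with wt 6 the lowest in each.

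**Figure D4:**
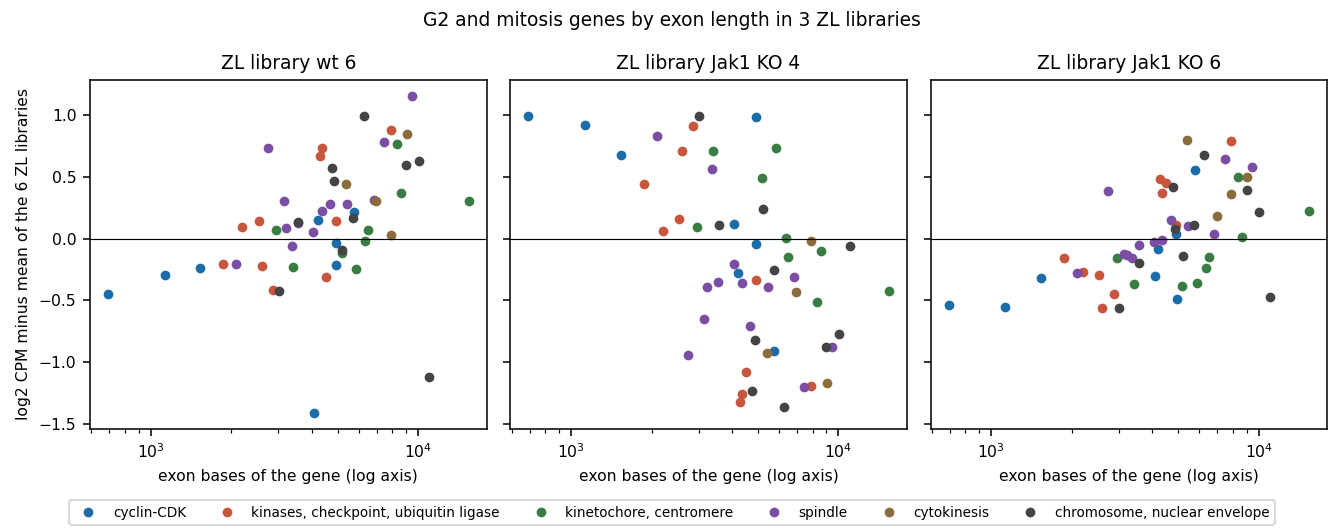
Log2 CPM of each member minus its mean over the 6 ZL libraries, against the gene's exon bases (log axis), in wt 6, Jak1 KO 4 and Jak1 KO 6. In Jak1 KO 4 short genes tend to lie high and long genes low (Spearman -0.49), and in wt 6 (0.50) and Jak1 KO 6 (0.57) the trend is the opposite. A trend in 1 library shifts the subtracted mean, so opposite trends in other libraries can follow in part from the subtraction.

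Over the 12 libraries the 27 members of up to 4812 exon bases and the 27 longer ones had equal median log2 fold changes of -0.18. Of these, 20 and 24 lay below 0, against 41.3% and 63.5% of all genes on the same sides of that length. At an unadjusted p under 0.05, 5 and 2 were lower, against 195 of 7287 and 156 of 5785 genes. In VD the medians were -0.24 for the shorter and -0.18 for the longer members, and in ZL -0.12 and -0.18. The difference between shorter and longer members was not tested. Among all genes the medians over 12 libraries on the same sides of that length were 0.06 and -0.08. With each library's trend on length taken out by an offset, the members' median was -0.15 and 43 lay below 0. Before adjustment, edgeR's p in that fit fell below 0.05 for 10 members, where the fit with no offset had 7. The share among the genes tested rose too, from 5.06% with no offset to 6.47% with it, both directions counted. Without Jak1 KO 4, and with no offset, the members' median was -0.13 and 49 members lay below 0.

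**Figure D5:**
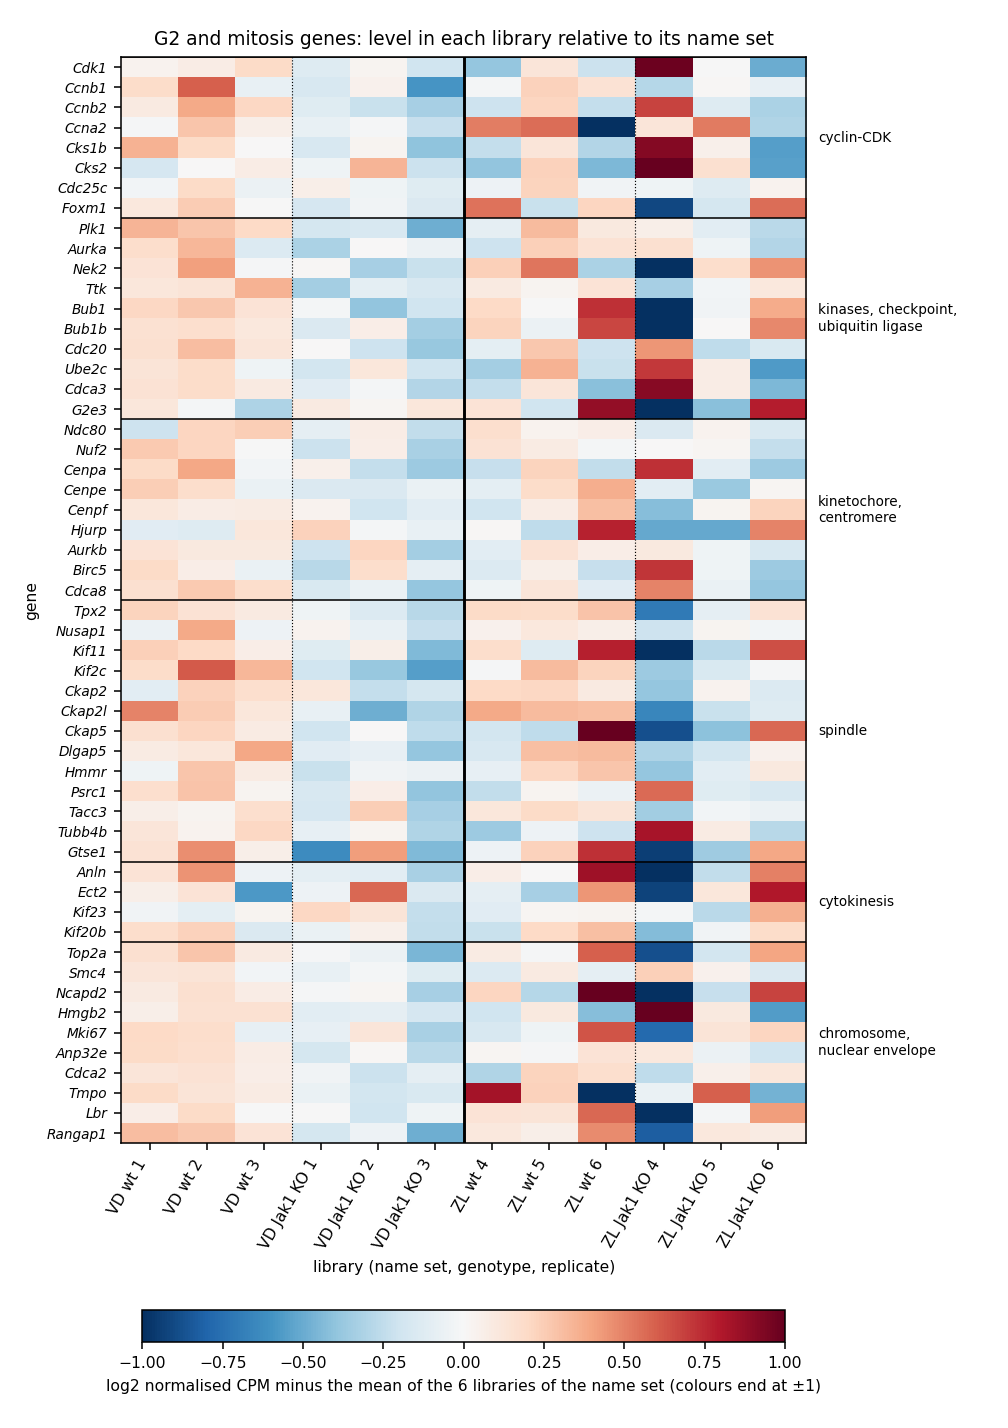
Log2 CPM of each of the 54 members (rows, by role) in each library (columns) minus the mean of the 6 libraries of its name set, with colours ending at ±1. In VD the Jak1 KO columns are mostly below the set mean, Jak1 KO 3 most of all (lowest for 36 members), and in ZL the column of Jak1 KO 4 holds both the highest values (14 members) and the lowest (28 members).

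The name sets differed more than the genotypes did. Tested as a term in the same model, 31 of 54 members passed between ZL and VD, 25 higher and 6 lower in ZL, where 60% of all genes passed, 35.4% higher and 24.5% lower. The share of members, 31 of 54, is thus near that of all genes. Mki67 was lower in ZL by the largest amount (log2 difference -2.17, SE 0.20, edgeR's adjusted p = 9.30e-07), followed by Foxm1 (-1.58), Ncapd2 (-1.06) and Hjurp (-0.92). Cks1b (1.48, SE 0.24), Ccnb1 (1.30), Lbr (1.26) and Ccnb2 (1.23) were higher in ZL by the largest amounts. The shorter members had a median difference of 0.62 and the longer ones -0.06, against 0.54 and -0.23 for all genes on the same sides of the length limit. The share of Rn45s reads and the neutrophil markers given above differed between the sets too, and their part was not tested.

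Per kilobase of exon, Tubb4b had the highest level of the members, with a mean over the 12 libraries of 178 CPM per kilobase, at the 99.1 percentile of all genes tested. Anp32e (109), Cks1b (91.7), Ccnb2 (80.3) and Lbr (71.3) followed. The lowest levels were those of Hjurp (2.93 CPM per kilobase, the 27.4 percentile), Cdc25c (4.10) and Cenpf (5.32). The members' mean log2 CPM was 6.23 to 6.39 in VD wt and 5.92 to 6.15 in VD Jak1 KO, without overlap. In ZL it was 6.4 to 6.56 in wt and 6.21 to 6.44 in Jak1 KO, where Jak1 KO 6 lay above wt 4.

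Fold changes of members with and without the promoter letters are given as medians, and their differences were not tested. The median log2 fold change over 12 libraries was -0.18 for the 34 members with TTTGAA in a window and -0.22 for the 12 members with none of it. The 36 members with a CCAAT box had -0.18 and the 10 without -0.20. By set, members with a CCAAT box had -0.23 against -0.15 without it in VD, and -0.15 against -0.23 in ZL. The 28 members with both TTTGAA and CCAAT had -0.22 against -0.25 for the other 18 in VD, and -0.11 against -0.23 in ZL. For the 5 genes whose promoters are printed above, the values were -0.61 for Ckap2l, -0.45 for Bub1, -0.38 for Plk1, -0.28 for Cenpe and 0.12 for Cdk1.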

How the data were processed

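LT-HSC RNA was isolated with TRIzol and sequenced from poly-A TruSeq libraries, per the labels' protocols. The deposited table held raw read counts per gene symbol for 12 libraries, whole numbers with no normalisation. Alignment and counting by the authors involved the mm10 build, STAR 2.3.0e, Subread and featureCounts, per the submitters' processing notes. The annotation and the strand setting were not given in the sources used here. Reads of overlapping or antisense genes therefore cannot be told apart, and members with close paralogs or pseudogenes (Tubb4b, Hmgb2, Cks1b, Cks2) may share reads with them. Every column was tied to its sample by the sample description, genotypes came from titles, and name sets from descriptions.

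The 54 members, their roles, the further gene lists, the tests and most of the alternatives were chosen with earlier results of these data known. Counts were fitted in R 4.3.3 with edgeR 4.0.16 (filterByExpr on genotype, TMM scaling, a name set term and a genotype term). Quasi-likelihood p-values received a Benjamini-Hochberg adjustment across the tested genes, with a threshold of 0.05. The sets were also fitted alone, and the interaction was tested in a model over both. SEs were derived from the F statistic, intervals are at 95%, and values after ± are SDs. Depth was 8989965 to 28701855 counts per library. Log2 CPM had a prior count of 2. The code was tested on simulated data with known changes.

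Members named with all values were 9 fixed genes and, in each role, the 2 with the smallest p and the 1 with the highest CPM per kilobase, and of each further list up to 2 with the smallest p. Tpx2 and other members beyond that rule were singled out after their values were seen. Gene positions and exon lengths came from GENCODE annotation of GRCm38 (21870 symbols matched and 1236 older symbols, of 23472), promoters from RefSeq (GRCm38.p6). No promoter entry was found for Ccna2, Cdc25c, Foxm1, Aurkb, Tpx2, Dlgap5, Smc4 or Cdca2.

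Alternatives were DESeq2 1.42.0 size factors and Wald test, no filter on low counts, no name set term, a replicate block, each library left out, wt 6, Jak1 KO 4 and Jak1 KO 6 left out together, an offset on exon length, Rn45s left out, and an adjusted p of 0.1. Those for the counts of members whose genotypes did not overlap were added after the data were seen. The values of 1 marker gene are not reported here.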

Additional observations from a re-analysis of the deposited data

Results flagged for a closer look

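In 4 of 68 groups of 6 libraries examined (34 named genes in each genotype), 1 library stood far from the others, by a gap to its neighbour divided by the group's whole range that exceeded Dixon's critical value at 95%. Chance flags about 1 in 20 groups. Of these, 2 concern the library Jak1 KO 4. For Cdk1 it was the highest of the libraries labelled Jak1 KO with a ratio of 0.688, at 287 CPM against 144 CPM for the next. For Cks2 it was the highest with a ratio of 0.630, at 45.2 CPM against 25.4 CPM. For Cks2 in wt, wt 5 was the highest at 26.5 CPM against 17.2 CPM for the next, with a ratio of 0.753. For Cenpe, Jak1 KO 5 was the lowest of its genotype at 56.6 CPM against 68.1 CPM, with a ratio of 0.658. The genotype groups span both name sets. No member passed edgeR's test of a genotype effect that differs between the name sets (smallest adjusted p 0.975).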

How the results depend on the processing

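The members' median log2 fold change stayed below 0 under every setting run, at -0.13 to -0.22 over 12 libraries with 1 library left out, -0.18 to -0.27 in VD and -0.10 to -0.25 in ZL. The number of members past the threshold over 12 libraries was 0, except 1 with the DESeq2 Wald test and 1 without wt 6, Jak1 KO 4 and Jak1 KO 6 together, both times Ckap2l (-0.57 and -0.53). In VD it was 0 to 2 with 1 library left out (0.47% to 2.29% of all genes). Between name sets it was 28 to 34 (54.9% to 62.5% of all genes), and for the interaction 0 (0% of all genes). Members whose genotypes did not overlap numbered 29 to 40 in VD (16.7% to 21.1% of all genes) and 6 to 19 in ZL (3.62% to 16.5% of all genes) with 1 library left out. The labels do not say what replicate numbers mark, and they were not taken as pairs: deviations of same-numbered libraries correlated at 0.04, 0.19, 0.11, 0.20, 0.06 and 0.67 for numbers 1 to 6, and 3 of 6 numbers matched best with their own. With replicate number as a block, the members' median over 12 libraries was -0.19, and 72 genes passed, 0 of them members. Before adjustment, edgeR's p was below 0.05 for 13 members and for 7.05% of the genes tested. The same block gave 0 passing members in ZL and 4 in VD (Kif2c, Ckap2l, Top2a and Rangap1), where 390 genes passed in place of 149. Genes called over 12 libraries numbered 58, but 126 with DESeq2, 14 without the name set term and 96 without the 3 ZL libraries.

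Signs turned for 4 named genes, all with small values. Ccnb2 was 0.01 without the name set term. Cks1b was -0.05 with the replicate block, -0.15 with the length offset, -0.17 without the 3 ZL libraries, and -0.20 to 0.11 with 1 library left out (below 0 without wt 4, wt 6 or Jak1 KO 4). Cdk1 was -0.06 and Tubb4b -0.03 without the 3 ZL libraries, and with 1 library left out they ranged from -0.11 to 0.22 and from -0.04 to 0.21, below 0 without Jak1 KO 4. The causes were not tested. Of the other values for named genes under alternatives, 667 kept direction and side of the threshold. The pooled SD of the members' mean log2 CPM between libraries of 1 genotype and set was 0.1, with 3 libraries in each.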
